A study of Mus musculus with 16 samples.

Results

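The Serpina3 gene cluster of the mouse is a row of serine protease inhibitor genes, and 7 of them (Serpina3n, Serpina3m, Serpina3g, Serpina3i, Serpina3f, Serpina3h and Serpina3c) are described here in the left ventricle of hearts with and without the pyruvate kinase isoform PKM2. The genes were chosen by name from the 55492 genes of the expression table, because Serpina3m differed between the genotypes, and all 7 were found. Total RNA depleted of rRNA was sequenced from 16 hearts of male C57BL/6 mice aged 8 to 12 weeks, each library from its own mouse, with 2 libraries per genotype at baseline (no surgery), 3 after sham surgery and 3 after myocardial infarction (MI). MI was made by permanent ligation of the left anterior descending artery, sham mice had the operation without the ligature, and both were taken 3 days later. PKM2fl/fl mice carry the floxed Pkm allele and were the controls. PKM2-/- mice lack exon 10 of Pkm in every tissue, since a CMV-driven Cre deleted it in the germline, and the Cre allele had been bred out.

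Serpins inhibit proteases by presenting a bait, the reactive centre loop, which the protease cuts and by which it is then trapped. The human genome has a single SERPINA3 gene, for alpha-1-antichymotrypsin, a secreted acute phase protein made mainly by the liver, whereas the mouse has a cluster of copies whose loops have diverged. Serpina3n is the copy known as a secreted inhibitor of granzyme B and of other leukocyte proteases and as a marker of inflammation outside the liver, Serpina3g (Spi2A) acts inside cells on cysteine cathepsins, Serpina3c is a kallikrein-binding protein, and Serpina3h is annotated as a transcribed pseudogene.

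The 7 genes lay within 267 kb of chromosome 12 in the RefSeq annotation of GRCm38.p6, the build the reads were aligned to. From one end to the other these were Serpina3c (chr12:104146907-104153929), Serpina3f (chr12:104214544-104221129), Serpina3g (chr12:104236147-104241939), Serpina3h (chr12:104247896-104254405), Serpina3i (chr12:104263045-104269509), Serpina3m (chr12:104387157-104394259) and Serpina3n (chr12:104406646-104414334). Serpina3m and Serpina3n are direct neighbours, 12386 bases apart.

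The copies differ in sequence in the loop, and the stretches below show how far reads from it can be told apart. Each runs for 90 bases of the transcript from the conserved hinge of the loop towards the codons that close it, taken from GENCODE M39 transcripts, 5′ to 3′. Capitals mark the bases that differ from Serpina3n.
Serpina3n: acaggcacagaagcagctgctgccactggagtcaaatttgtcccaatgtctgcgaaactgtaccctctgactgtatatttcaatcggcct
Serpina3m: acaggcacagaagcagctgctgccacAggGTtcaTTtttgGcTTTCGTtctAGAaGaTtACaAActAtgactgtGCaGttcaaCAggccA
Serpina3g: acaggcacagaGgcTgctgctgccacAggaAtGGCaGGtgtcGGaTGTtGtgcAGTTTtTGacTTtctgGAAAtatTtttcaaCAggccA
Serpina3i: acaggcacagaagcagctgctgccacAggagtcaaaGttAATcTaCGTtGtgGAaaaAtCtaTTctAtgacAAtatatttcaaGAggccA
In the first 30 bases, which hold the hinge, Serpina3m differed from Serpina3n at 2 positions, Serpina3g at 3 and Serpina3i at 1. In the other 60 bases they differed at 26, 29 and 21 positions. The stretch of Serpina3f was 1 codon longer, at 93 bases, and the same search found none in the transcripts used for Serpina3c and Serpina3h. Over the aligned part of the whole transcripts, identity to Serpina3n ranged from 78.6% (Serpina3f) to 87.2% (Serpina3h, the pseudogene). It was 81.2% for Serpina3m, 79.0% for Serpina3g and 80.6% for Serpina3i, against 68.9%, 64.4% and 75.6% within the 90 bases. Other stretches of the transcripts were not compared.

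Reads that fall in stretches shared between copies could be assigned to either, and the setting of the counting for such reads was not given in the sources used here. Of the 50-base words in the Serpina3m transcript, 19.1% also occurred in another Serpina3 gene, 16% in Serpina3k and 1.12% in Serpina3n. For Serpina3n the share found in any other Serpina3 gene was 6.31%, and over the other 5 genes it ran from 2.37% (Serpina3c) to 19.4% (Serpina3h). Serpina3g shared 2.52% of its words with Serpina3n, which has many more reads, while Serpina3h and Serpina3i shared 0% with Serpina3n. Serpina3h and Serpina3i shared most with each other, 14.6% and 10.5% of their words, and Serpina3g shared most with Serpina3h, 9.67%. Levels of the members are uncertain for this reason, and these shares give no bound on it, since a short stretch shared with a much more abundant copy can weigh more than a long one shared with a rare copy.

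The region before the transcription start is shown for the genes with an entry in the RefSeq promoter table, since the members did not all move together after surgery. The sequences are the 250 bases before the start that this table gives in GRCm38.p6, on the strand of the gene. For Serpina3n, Serpina3i and Serpina3c that start lies inside the annotated range of the gene, so that 62, 77 and 57 bases of the window are within that range. For Serpina3f the table gives 2 starts, and the window of the first is shown. That of the second (chr12:104214383-104214632) has 89 bases within the range of the gene. Motifs searched on both strands were the STAT motif TTCNNNGAA, the C/EBP motif TTGCNNAA and the NF-kappaB consensus. In Serpina3i, Serpina3g and Serpina3f, capitals mark matches to any of them. In Serpina3n and Serpina3c, which had no match, capitals mark the bases aligned with the STAT match of Serpina3i.
Serpina3i (chr12:104262872-104263121, plus strand): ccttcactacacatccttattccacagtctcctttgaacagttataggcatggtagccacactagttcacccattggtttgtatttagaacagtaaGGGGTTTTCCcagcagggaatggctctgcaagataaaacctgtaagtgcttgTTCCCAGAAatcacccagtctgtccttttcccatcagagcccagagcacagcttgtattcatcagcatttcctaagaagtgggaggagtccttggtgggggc
Serpina3g (chr12:104235897-104236146, plus strand): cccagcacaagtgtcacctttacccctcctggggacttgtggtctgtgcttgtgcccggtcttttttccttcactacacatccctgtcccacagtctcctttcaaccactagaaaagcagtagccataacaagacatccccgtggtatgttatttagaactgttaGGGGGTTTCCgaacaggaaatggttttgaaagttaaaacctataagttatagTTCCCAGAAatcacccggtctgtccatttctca
Serpina3f (chr12:104214294-104214543, plus strand): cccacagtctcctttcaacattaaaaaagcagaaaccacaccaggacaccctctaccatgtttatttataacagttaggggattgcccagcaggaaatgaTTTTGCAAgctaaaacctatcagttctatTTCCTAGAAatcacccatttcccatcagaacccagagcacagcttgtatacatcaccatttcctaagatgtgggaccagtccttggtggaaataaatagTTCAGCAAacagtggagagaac
Serpina3n (chr12:104406458-104406707, plus strand): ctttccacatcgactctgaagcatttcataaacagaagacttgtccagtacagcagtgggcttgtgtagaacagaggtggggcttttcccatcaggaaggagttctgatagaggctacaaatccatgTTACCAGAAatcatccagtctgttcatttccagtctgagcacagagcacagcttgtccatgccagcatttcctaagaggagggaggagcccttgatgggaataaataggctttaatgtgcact
Serpina3c (chr12:104153873-104154122, minus strand): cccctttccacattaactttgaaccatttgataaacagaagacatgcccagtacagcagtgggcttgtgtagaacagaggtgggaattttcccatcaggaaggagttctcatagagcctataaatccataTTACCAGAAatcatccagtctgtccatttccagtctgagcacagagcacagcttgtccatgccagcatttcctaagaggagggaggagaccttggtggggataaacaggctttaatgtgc
Serpina3i, Serpina3g and Serpina3f each had 1 STAT match, a motif found in 7.02% of 32851 promoters of the same length. At the aligned bases Serpina3n and Serpina3c both carried C3A, counted from 1 at the 5′ end of the Serpina3i match. Serpina3f had 2 matches to the C/EBP motif, which 9.56% of promoters held. Its second window held the same matches, with the STAT match 210 bases before the start instead of 121. Serpina3g and Serpina3i had 1 match each to the NF-kappaB consensus, which 3.90% of promoters held. The promoters of Serpina3n and Serpina3c, the outermost of the 7 genes and in opposite orientation, were 92.7% identical over 247 aligned bases. A match here is a description of letters in this window and not of binding.

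The 16 libraries held 20623769 to 71855101 reads, of which 293 to 9482 per library fell on the 7 genes. Values are normalized counts, the reads of a gene divided by the size factor of its library. All 7 genes had a mean of at least 10 normalized counts over the 16 libraries and so entered the fit, although Serpina3f, Serpina3g and Serpina3h rested on 2 to 8 reads per library in PKM2-/- baseline hearts. Of the 7 other Serpina3 genes, 1 passed that filter (Serpina3e-ps, a pseudogene), and of 14 other clade A serpins, 0 did. The rRNA-related loci took 17.6% and 22.6% of reads in the PKM2fl/fl baseline libraries and 40.6% and 44.6% in the PKM2-/- baseline libraries, and their part in the differences at baseline was not tested. After sham surgery the share was 16.1% to 28.5% in PKM2fl/fl and 29.5% to 46.9% in PKM2-/- libraries, and after MI 20.6% to 46.5% and 16.8% to 36.1%. Pkm had 7779 to 16113 normalized counts per library, but as a count of the whole gene it checks nothing about exon 10. In these bulk samples a change in the share of a cell type and a change in RNA per cell cannot be told apart.

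Serpina3n was by far the main copy in the heart. It had 239 and 409 normalized counts in the PKM2fl/fl baseline hearts, 1659.7, 1828 and 586 after sham surgery, and 4062, 1740.3 and 2245 after MI. In PKM2-/- hearts it had 763 and 454 at baseline, 1696, 2353 and 2465 after sham surgery, and 6542, 4472 and 4163 after MI. The third PKM2fl/fl sham heart lay far under the other 2 of its group, as it lay lowest for 6 of the 7 genes, and the first MI heart of each genotype lay highest. That sham library was the deepest of all, and the summed level of 12 leukocyte markers was 4220 normalized counts in it against 8057 and 9835 in the other 2, and that of 8 fibroblast markers 25566 against 34947 and 46832. Their part in its low values was not tested. Ordered by their means, the groups ran PKM2fl/fl baseline, PKM2-/- baseline, PKM2fl/fl sham, PKM2-/- sham, PKM2fl/fl MI and PKM2-/- MI. Neighbours in that order overlapped except the 2 baseline groups and the 2 MI groups. Of the reads on the 7 genes, 74.5% to 89.2% per library fell on Serpina3n. Per kb of transcript, its mean was 144 normalized counts in PKM2fl/fl baseline hearts and 2247 in PKM2-/- MI hearts.

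Serpina3m followed the same order of groups at a much lower level. It had 7.06 and 15.3 normalized counts in PKM2fl/fl baseline hearts, 63.5, 52.4 and 18.1 after sham surgery, and 187, 71.8 and 117 after MI. The PKM2-/- hearts had 49.0 and 34.8 at baseline, 111, 142 and 113 after sham surgery, and 351, 248 and 248 after MI. Every PKM2-/- heart was thus above every PKM2fl/fl heart of its condition, and the PKM2fl/fl sham heart that was low for Serpina3n was also the low one here. Of neighbours in the order of means, PKM2-/- baseline (mean 41.9 ± 9.99, SD, n = 2) and PKM2fl/fl sham (44.6 ± 23.6, SD, n = 3) overlapped, as did PKM2-/- sham (122 ± 17.5, SD, n = 3) and PKM2fl/fl MI (125 ± 58.1, SD, n = 3).

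**Figure D1:**
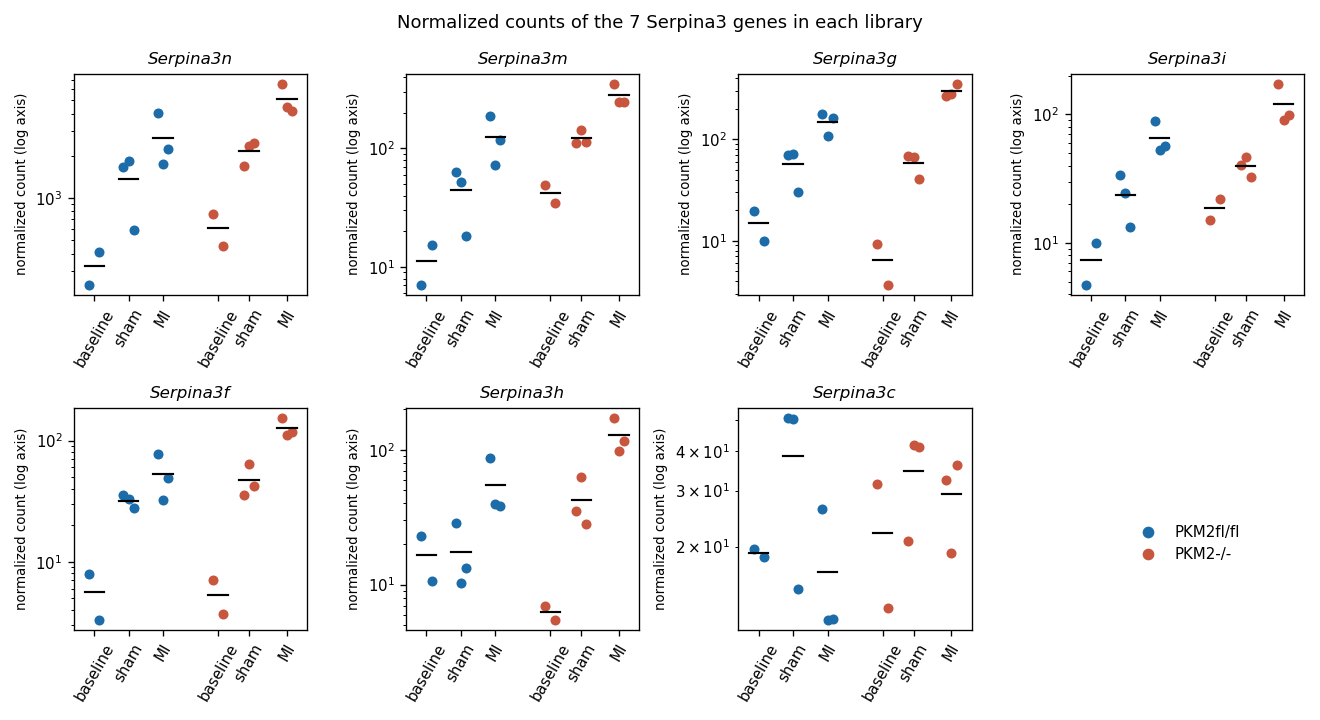
Normalized counts (log axis, with its own scale for each gene) of the 7 Serpina3 genes in each of 16 libraries, by genotype (blue PKM2fl/fl, red PKM2-/-) and condition, with each point a heart and each bar the group mean. The 3 PKM2-/- MI hearts lie above all other groups' means for every gene but Serpina3c, and the third PKM2fl/fl sham heart is the lowest of its group for 6 of the 7 genes, all but Serpina3h.

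Serpina3g, the intracellular inhibitor, had 19.6 and 9.95 normalized counts in PKM2fl/fl baseline hearts, 70.5, 70.8 and 30.4 after sham surgery, and 176, 107 and 164 after MI. The PKM2-/- hearts had 9.32 and 3.67 at baseline, 69.1, 66.6 and 41.0 after sham surgery, and 265, 283 and 353 after MI. Its groups did not overlap between conditions in either genotype. Serpina3i had 4.71 and 9.95 at baseline, 13.2 to 33.5 after sham surgery and 52.5 to 88.1 after MI in PKM2fl/fl hearts, and 15.2 and 21.99, 32.4 to 47.0 and 90.8 to 173 in PKM2-/- hearts. As for Serpina3g, no 2 conditions overlapped within a genotype.

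Serpina3f had 7.85 and 3.32 normalized counts at baseline, 27.9 to 35.2 after sham surgery and 32.1 to 77.3 after MI in PKM2fl/fl hearts. Its values in PKM2-/- hearts were 6.99 and 3.67, 35.4 to 64.0 and 111 to 152. Sham and MI overlapped in the PKM2fl/fl hearts and were apart in the PKM2-/- hearts. Serpina3h, the pseudogene, had 22.8 and 10.6 at baseline, 10.3 to 28.8 after sham surgery and 38.4 to 86.6 after MI in PKM2fl/fl hearts, so that baseline and sham overlapped. Its values in PKM2-/- hearts were 6.99 and 5.50 at baseline, 28.05 to 62.7 after sham surgery and 98.4 to 170.2 after MI, with no overlap.

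Serpina3c, the kallikrein-binding protein, stood apart from the other members. It had 19.6 and 18.6 normalized counts in PKM2fl/fl baseline hearts, 50.5, 50.3 and 14.7 after sham surgery, and 26.3, 11.8 and 11.9 after MI. The PKM2-/- hearts had 31.5 and 12.8 at baseline, 20.9, 41.8 and 41.0 after sham surgery, and 32.4, 19.1 and 36.1 after MI. Its highest mean was in the PKM2fl/fl sham hearts (38.5) and its lowest in the PKM2fl/fl MI hearts (16.7), where the mean of every other member was above that of the sham hearts. Set against Serpina3n in the same library, it went from 2.51 to 3.04 reads per 100 Serpina3n reads after sham surgery to 0.530 to 0.677 after MI in PKM2fl/fl hearts, and from 1.23 to 1.78 to 0.426 to 0.866 in PKM2-/- hearts. These ratios do not depend on how libraries are scaled.

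Infarction raised most of the cluster in PKM2fl/fl hearts. Against sham surgery, Serpina3h rose 3.09-fold, Serpina3m 2.91-fold, Serpina3i 2.80-fold, Serpina3g 2.70-fold and Serpina3n 2.07-fold. Serpina3f (1.54-fold, adjusted p = 0.174) and Serpina3c (0.477-fold, adjusted p = 0.0904) did not pass the test. The 5 members called of 7 compare with 12.4% of the 20576 genes called higher, from limma's moderated test on log2(normalized count + 1) of all 16 libraries with Benjamini-Hochberg adjustment over all genes, where a call needed a 2-fold change and an adjusted p below 0.05. Lower calls made up 11.1% of genes. The median log2 fold change of the 7 was 1.43 and that of all genes -0.0025. Adjusted p ran from 0.00428 (Serpina3i) to 0.0374 (Serpina3n). Every MI heart was above every sham heart for Serpina3g, Serpina3h, Serpina3i and Serpina3m, as for 30.0% of all genes. In Serpina3n the second MI heart lay between the sham hearts. The rRNA-related share of reads was 45.0%, 20.6% and 46.5% in these MI libraries against 16.1% to 28.5% in the sham libraries, with 4 of 7 tested rRNA-related loci called higher, and its part in the result was not tested.

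The call for Serpina3n in PKM2fl/fl hearts depended on single libraries. Its value of 1.05 on the log2 scale (standard error 0.40) became 0.53 (limma, adjusted p = 0.219) without the third sham heart and 0.71 (limma, adjusted p = 0.175) without the first MI heart. Without the third MI heart the value was 1.13 (limma, adjusted p = 0.0518). The call was also lost with total read scaling, without a filter on low values, with only the 2 groups in the fit, and by DESeq2 and edgeR on recovered reads, where it was 0.98 with adjusted p = 0.0590 (DESeq2) and 0.98 with adjusted p = 0.0445 (edgeR), just under a 2-fold change. Serpina3c fell by 1.64 on the log2 scale and passed the test without the third sham heart (adjusted p = 0.0115 from limma), and by 1.43 without the first MI heart (adjusted p = 0.0415 from limma).

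Infarction raised every member but Serpina3c in PKM2-/- hearts. Serpina3g rose most, 5.12-fold (log2 2.36, standard error 0.38, adjusted p = 9.23e-05 from limma). Serpina3h rose 3.09-fold, Serpina3i 2.90-fold, Serpina3f 2.72-fold, Serpina3n 2.31-fold and Serpina3m 2.28-fold, with adjusted p from 0.00282 to 0.0258. For Serpina3c the log2 value was -0.22 (limma, standard error 0.50, adjusted p = 0.731), and it was 0.28 with total read scaling and 0.049 without the second MI heart. The 6 members called of 7 compare with 14.5% of all genes called higher and 14.3% called lower. For those 6 genes every MI heart was above every sham heart, as for 31.7% of all genes. The calls for Serpina3m and Serpina3n were lost without the first MI heart (log2 1.02, adjusted p = 0.0899, and log2 1.01, adjusted p = 0.0696, both from limma) and without the first sham heart (log2 1.13, adjusted p = 0.0682, and log2 1.04, adjusted p = 0.0651, both from limma). That for Serpina3m was also lost without the third sham heart (log2 1.14, adjusted p = 0.0658 from limma).

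The infarct effect is shown side by side for both genotypes, without a test of the difference, since the set was chosen for a difference by genotype. The log2 fold change in PKM2-/- hearts minus that in PKM2fl/fl hearts was 0.93 (standard error 0.54) for Serpina3g, 0.81 (standard error 0.52) for Serpina3f and 0.85 (standard error 0.71) for Serpina3c. It was 0.16 for Serpina3n, 0.05 for Serpina3i, 0.0016 for Serpina3h and -0.35 for Serpina3m, each with a standard error of 0.54 to 0.63.

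Sham surgery alone also moved members of the cluster. Serpina3g in PKM2-/- hearts was 8.41-fold higher than at baseline, Serpina3f 7.65-fold, Serpina3h 5.64-fold and Serpina3n 3.63-fold, with adjusted p from 0.00158 to 0.0246 (limma). Serpina3m (2.89-fold, adjusted p = 0.0784), Serpina3i (2.10-fold, adjusted p = 0.174) and Serpina3c (1.61-fold, adjusted p = 0.587) did not pass the test. The 4 members called of 7 compare with 2.06% of all genes called higher and 0.608% called lower, and 6 members had every sham heart above both baseline hearts, as 18.4% of genes did. Beside them, 4 of 10 tested leukocyte markers and 3 of 8 fibroblast markers were higher, and their part in the result was not tested. The baseline groups hold 2 libraries each, and the calls rested on them. Without the second baseline heart the log2 fold change of Serpina3n went from 1.86 to 1.49 (adjusted p = 0.218 from limma) and that of Serpina3h from 2.50 to 2.35 (adjusted p = 0.0841 from limma), which left 2 members called. Serpina3n was also lost without the first baseline heart (adjusted p = 0.0534), the second sham heart (adjusted p = 0.0688) or the third sham heart (adjusted p = 0.0603), all from limma. Serpina3m passed the test with total read scaling (adjusted p = 0.0164 from limma), with only the 2 groups in the fit (adjusted p = 0.0229), without the third PKM2fl/fl sham heart (adjusted p = 0.0283) and by DESeq2 on recovered reads (adjusted p = 0.0244).

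In PKM2fl/fl hearts, Serpina3f was the member called after sham surgery, 5.32-fold higher than at baseline (log2 2.41, standard error 0.42, adjusted p = 0.0291 from limma), where 0.160% of all genes were called higher and 0.00972% lower. Serpina3n (3.87-fold, adjusted p = 0.0932), Serpina3g (3.62-fold, adjusted p = 0.0980), Serpina3m (3.53-fold, adjusted p = 0.144) and Serpina3i (2.94-fold, adjusted p = 0.161) had every sham heart above both baseline hearts, as 17.4% of all genes did, but did not pass the test. Serpina3h was level (log2 0.02, standard error 0.50, adjusted p = 0.999 from limma). The third sham heart decided the count. Without it, 5 members were called, among them Serpina3n (log2 2.47, adjusted p = 0.00421), Serpina3m (2.36, adjusted p = 0.0115), Serpina3g (2.25, adjusted p = 0.0165) and Serpina3i (1.91, adjusted p = 0.0396), all from limma. In turn, Serpina3f was not called without the second baseline heart (log2 1.89, adjusted p = 0.245), the first sham heart (2.34, adjusted p = 0.127) or the second sham heart (2.39, adjusted p = 0.119), all from limma, and its adjusted p was 0.0563 without the second PKM2-/- MI heart and 0.0510 without the third, which enter only through the shared estimate of the spread. With only the 2 groups in the fit its adjusted p was 0.165, and by edgeR on recovered reads 0.0509.

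**Figure D2:**
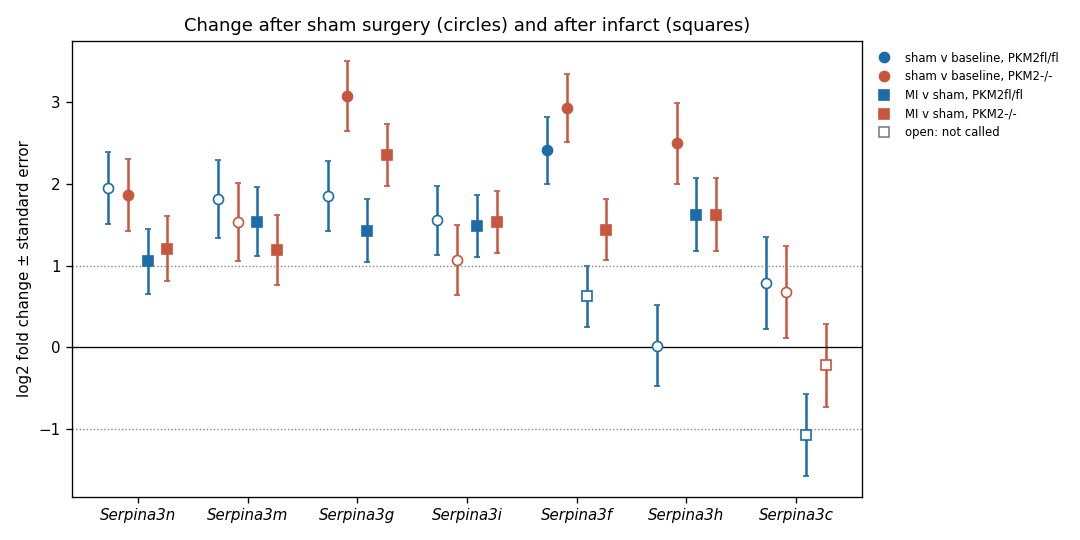
Log2 fold change with its standard error (y axis) of the 7 genes (x axis) for sham against baseline (circles) and MI against sham (squares), in PKM2fl/fl (blue) and PKM2-/- (red) hearts, filled where the gene was called and with dotted lines at 2-fold. Serpina3c is the member with negative values after MI (-1.07 and -0.22), and Serpina3g has the largest value of the figure in PKM2-/- hearts, 3.07 for sham against baseline.

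Between genotypes the values are given as a description, since this difference chose the set. Serpina3m was higher in PKM2-/- hearts by 1.89 (log2, standard error 0.52) at baseline, 1.60 (standard error 0.42) after sham surgery and 1.25 (standard error 0.42) after MI. With each library left out in turn it stayed between 0.91 and 2.39, and with other scalings or another pseudocount between 1.26 and 1.98. Its value after sham surgery was lowest, 1.06, without the third PKM2fl/fl sham heart. Serpina3n was higher by 0.91, 0.82 and 0.98, and Serpina3i by 1.29, 0.80 and 0.85. Without the third PKM2fl/fl sham heart the values after sham surgery were 0.30 for Serpina3n and 0.44 for Serpina3i, and without the first PKM2fl/fl baseline heart those at baseline were 0.52 and 0.82. Without the first PKM2-/- MI heart the value of Serpina3i after MI was 0.56. At baseline the PKM2-/- hearts lay above the PKM2fl/fl hearts without overlap for these 3 genes, as for 17.7% of all genes, and below without overlap for Serpina3g (-1.11) and Serpina3h (-1.20), as for 17.2%. With a library left out, Serpina3g at baseline ran from -1.69 to -0.54 and Serpina3h from -1.72 to -0.69. Total read scaling moved the values at baseline to 0.32 for Serpina3n and 0.75 for Serpina3i, and those after sham surgery to 0.50 and 0.49.

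After sham surgery the genotypes did not overlap for Serpina3m and Serpina3f (0.51, or 0.27 without the second PKM2-/- sham heart and 0.19 with total read scaling), with PKM2-/- higher, as for 8.27% of all genes (8.28% with PKM2-/- lower). After MI they did not overlap for 6 members, again with PKM2-/- higher, as for 10.7% of all genes (8.26% with PKM2-/- lower). The differences after MI were 1.32 for Serpina3f, 1.27 for Serpina3h, 1.03 for Serpina3g and 0.82 for Serpina3c, whose groups overlapped. Over all genes, 0.00972% were called higher in PKM2-/- hearts at baseline, 0.00486% after sham surgery and 0.156% after MI, where 0.258% were called lower. Serpina3g and Serpina3h were thus below the controls at baseline and above them after MI.

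**Figure D3:**
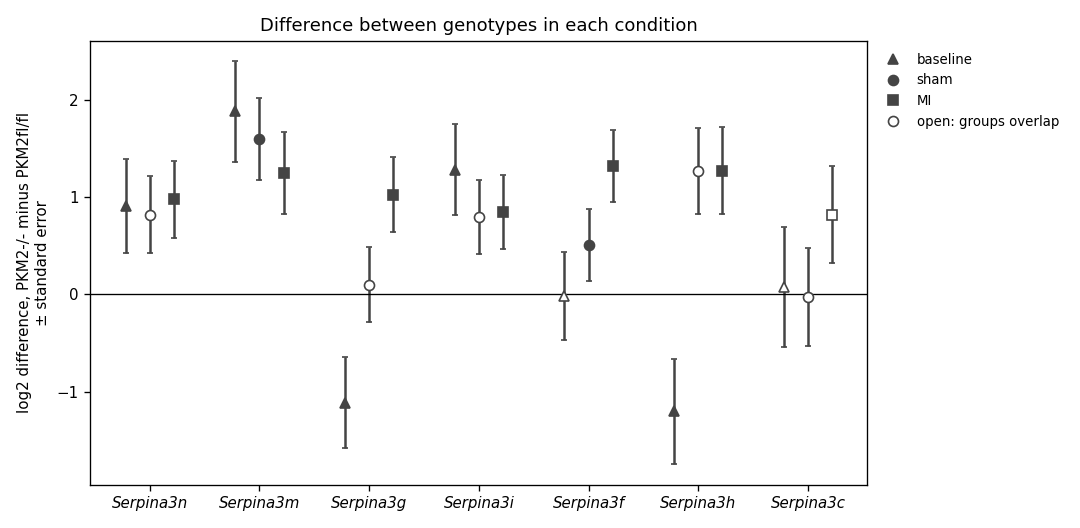
Difference of mean log2(normalized count + 1), PKM2-/- minus PKM2fl/fl (y axis, with its standard error), for the 7 genes (x axis) at baseline (triangles), after sham surgery (circles) and after MI (squares), filled where the 2 genotypes do not overlap. Serpina3m is above 0 without overlap in all 3 conditions (1.89, 1.60 and 1.25), while Serpina3g and Serpina3h change from negative at baseline to positive after MI.

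The level of Serpina3m relative to its neighbour Serpina3n, which does not depend on scaling, differed between the genotypes as well. Per 100 Serpina3n reads there were 2.86 to 5.21 Serpina3m reads in the 8 PKM2fl/fl libraries (mean 3.80 ± 0.83, SD, n = 8) and 4.60 to 7.66 in the 8 PKM2-/- libraries (6.02 ± 0.91, SD, n = 8). Within conditions, the ratio was 2.96 and 3.73 against 6.41 and 7.66 at baseline, 2.86 to 3.82 against 4.60 to 6.54 after sham surgery, and 4.13 to 5.21 against 5.37 to 5.96 after MI. The genotypes did not overlap in any of the 3 conditions, and the gap was narrowest after MI. For Serpina3i the ratio to Serpina3n was 2.22 ± 0.48 and 2.45 ± 1.05 (SD, n = 8 each), with overlapping ranges of 1.35 to 3.02 and 1.31 to 4.84. Ratios of other members separated the genotypes in some conditions. At baseline those of Serpina3c, Serpina3g and Serpina3h were lower in PKM2-/- libraries without overlap, as was that of Serpina3c after sham surgery. After MI that of Serpina3f was higher without overlap (2.33 to 2.84 against 1.85 to 2.20). The share of all genes with such a separation was not computed. Since the set was chosen on Serpina3m, these are descriptions, and its baseline ratios rest on 9 to 42 Serpina3m reads per library.

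**Figure D4:**
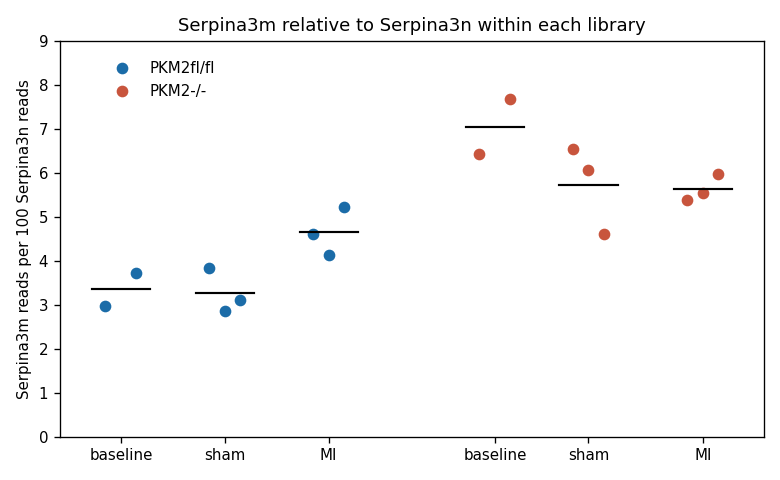
Serpina3m reads per 100 Serpina3n reads (y axis, from 0) in each of 16 libraries by condition (x axis), with each point a heart, blue for PKM2fl/fl and red for PKM2-/-, and bars for group means. The PKM2fl/fl libraries lie between 2.86 and 5.21 and the PKM2-/- libraries between 4.60 and 7.66, with no overlap within a condition.

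Some members varied with Serpina3n from heart to heart within a group, and others did so weakly. Correlations of log2(normalized count + 1) with Serpina3n over the 16 libraries, which share their library depth and groups, were 0.966 for Serpina3m, 0.951 for Serpina3i, 0.924 for Serpina3f, 0.878 for Serpina3g, 0.816 for Serpina3h and 0.376 for Serpina3c. For deviations from the group means the order was another: 0.949 for Serpina3m, 0.851 for Serpina3c, 0.719 for Serpina3i, 0.469 for Serpina3g, 0.461 for Serpina3f and 0.308 for Serpina3h (Pearson's r, 16 libraries). Serpina3c, whose group means moved apart from those of Serpina3n, thus deviated with it inside the groups. Deviations sum to 0 within each group, so the 2 libraries of a baseline group mirror each other. The 16 values are therefore not all independent. Without the third PKM2fl/fl sham heart, over 15 libraries, r was 0.902 for Serpina3m, 0.730 for Serpina3c, 0.553 for Serpina3i, 0.497 for Serpina3f, 0.277 for Serpina3h and 0.108 for Serpina3g. An error in the scaling of a library would move all its genes together, and its part in these values was not tested.

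**Figure D5:**
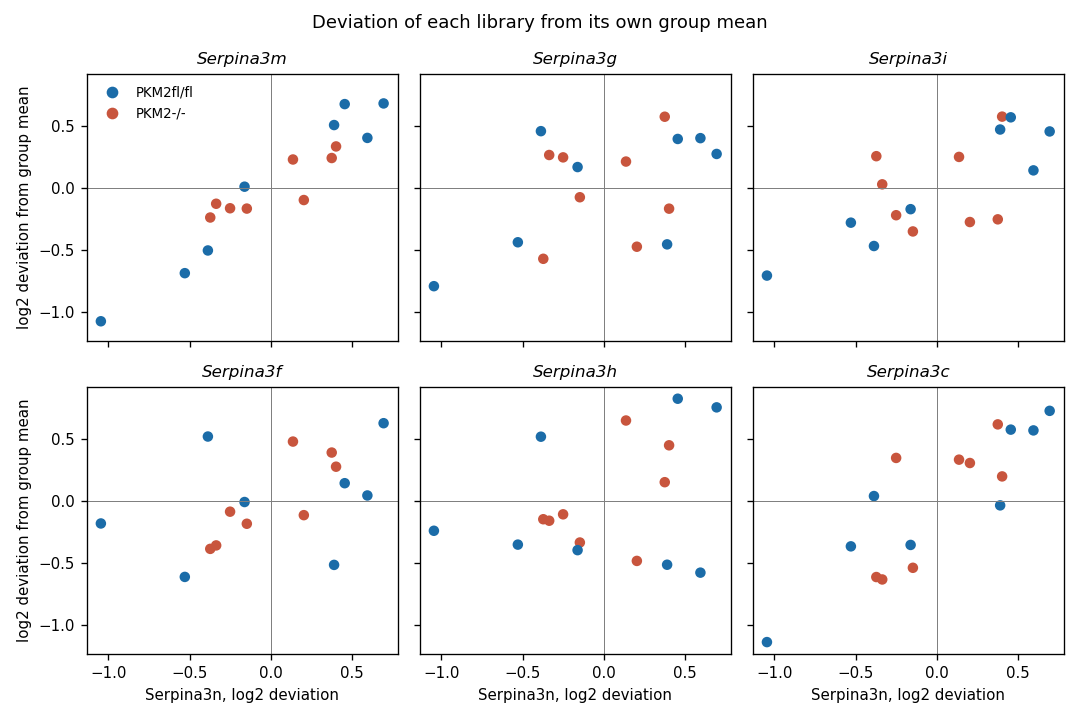
Deviation of each of 16 libraries from its own group mean, in log2(normalized count + 1), for 6 Serpina3 genes (y axes) against Serpina3n (x axes), blue for PKM2fl/fl and red for PKM2-/-. Points follow a rising line for Serpina3m (r = 0.949) and Serpina3c (r = 0.851) and scatter for Serpina3h (r = 0.308), and the point at the far left is the third PKM2fl/fl sham heart.

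Outside the cluster, the 5 genes with the profile most like that of Serpina3n over the 16 libraries, by Pearson's r, were Mmp8 (0.975), which encodes neutrophil collagenase, Srpx (0.974), Lcn2 (0.966), which encodes an iron-carrier-binding lipocalin, S100a9 (0.962), a calprotectin subunit of myeloid cells, and Osmr (0.961), the oncostatin M receptor. For Serpina3m they were Srpx (0.955), Lcn2 (0.943), Junb (0.939), Slc3a2 (0.937) and Carhsp1 (0.933). Srpx and Lcn2 were named for both.

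The other side of the pathway was read from lists of inducers, proteases and other serpins. Their counts stand beside 12.4% of all genes higher and 11.1% lower after MI in PKM2fl/fl hearts and 14.5% and 14.3% in PKM2-/- hearts. Of 15 tested inducers and receptors, 6 were higher after MI in PKM2fl/fl hearts (Il6, Osm, Lif, Il1b, Tnf and Il1r1), and 8 were higher and 1 lower in PKM2-/- hearts. Lif, a cytokine of the interleukin-6 family, rose 11.1-fold and 16.1-fold. Of 12 transcription factors and feedback genes, 2 were higher and 1 lower in PKM2fl/fl hearts and 2 were higher in PKM2-/- hearts, shares near those of all genes. Socs3, which restrains STAT3 signalling, rose 3.33-fold and 3.22-fold, and Nfkbiz 2.54-fold and 2.26-fold, while Tsc22d3, for the glucocorticoid-induced leucine zipper protein, fell by 1.00 on the log2 scale in PKM2fl/fl hearts (adjusted p = 0.00039 from limma). After sham surgery in PKM2-/- hearts 4 of the 12 were higher, where 2.06% of all genes were, namely Socs3 (4.84-fold, adjusted p = 0.00563 from limma), Cebpb, Cebpd and Fkbp5.

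The same shares of all genes, 12.4% and 14.5% higher and 11.1% and 14.3% lower, are the background of the next counts. Of 14 listed serine proteases and cysteine cathepsins, kinds that members of the cluster can inhibit, 8 passed the filter on low values and were tested. After MI in PKM2fl/fl hearts 4 were higher (Ctsk, Ctss, Ctsb and Prtn3) and 1 was lower, the mast cell protease Mcpt4. In PKM2-/- hearts 5 were higher, the same 4 and Ctsl. All the genes called higher but Prtn3 encode cysteine cathepsins, the kind that Serpina3g acts on. Ctss, which encodes cathepsin S, rose 6.84-fold and 6.41-fold and was already higher after sham surgery, 2.88-fold and 3.96-fold. Ctsb, for cathepsin B, rose 2.90-fold and 3.14-fold after MI. Of 15 tested serpins of the other clades, 6 and 7 were higher after MI, among them Serpinb1a (12.8-fold and 9.99-fold), an inhibitor of neutrophil proteases. Of 11 tested acute phase proteins, 4 and 6 were higher, among them Timp1, a metalloproteinase inhibitor (23.7-fold and 22.8-fold). Cp of the same list fell, short of a 2-fold change (0.571-fold, adjusted p = 0.000206, and 0.606-fold, adjusted p = 0.000406, both from limma). Lcn2, also on it, was not called in either genotype (1.34-fold and 1.85-fold). After sham surgery Serpinb1a was 1.06-fold and 1.27-fold of baseline and did not pass the test in either genotype. Of 7 tested neighbours of the wider locus outside the Serpina genes, 1, Clmn, was lower after MI in both genotypes, a share near that of all genes.

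Summed over each list, leukocyte and fibroblast markers rose from baseline to sham surgery and to MI, as most members of the cluster did. The summed level of the 12 leukocyte markers was 2918 to 4012 normalized counts per library at baseline, 4220 to 9835 after sham surgery and 21004 to 37350 after MI, and 7 of 10 tested were higher after MI in each genotype. Within the MI groups these sums did not keep the order of Serpina3n. In PKM2fl/fl MI hearts they were 24716, 21004 and 37350, where Serpina3n had 4062, 1740 and 2245. In PKM2-/- MI hearts they were 29020, 33982 and 33446, where Serpina3n had 6542, 4472 and 4163. The sum of the 8 fibroblast markers was 19252 to 22759 at baseline, 25566 to 47289 after sham surgery and 144660 to 200428 after MI, with 5 and 4 of 8 tested higher. Its lowest value after MI was in the first PKM2-/- heart, the one highest for Serpina3n. The sum of 8 cardiomyocyte markers was 1112372 to 1467672 at baseline and after sham surgery and 257208 to 582128 after MI, with 7 and 8 of 8 tested lower. That of 6 endothelial markers lay between 18569 and 26208 throughout. The part of these shifts in the rise of the Serpina3 genes was not tested. Of 12 hepatocyte markers, Fga and Serpina1c were at 0 in all 16 libraries, Alb had 0 to 2 reads and Serpina1a 0 to 1, and their sum was 86.2 to 156 normalized counts at baseline, 219 to 344 after sham surgery and 134 to 195 after MI. Most of it was Ahsg, Apoh and Cyp2e1, with 6 to 218 reads each. Ahsg, for the plasma protein fetuin-A, was higher after sham surgery in PKM2-/- hearts (log2 2.06, adjusted p = 0.00620 from limma), as Serpina3n was, and lower after MI in PKM2fl/fl hearts (log2 -1.03, adjusted p = 0.0170 from limma), where Serpina3n was higher.

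The other Serpina3 genes had few reads. Serpina3e-ps had 0 to 56 reads per library and was called higher after MI in PKM2fl/fl hearts (log2 1.94, standard error 0.74, adjusted p = 0.0392 from limma) but not in PKM2-/- hearts (0.98, adjusted p = 0.271). Serpina3k, which shares most with Serpina3m, had 0 to 43 reads against 9 to 433 for Serpina3m. Serpina3a, Serpina3b, Serpina3d-ps, Serpina3j and Serpina3l-ps had 0 to 5 reads in every library.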

How the data were processed

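Per the labels and the study's methods, the authors depleted rRNA, trimmed with PRINSEQ, used HISAT2 for alignment to mm10 and featureCounts for counting, and ran DESeq2. Versions, strand and multi-mapping settings are not given in the sources used here. The deposited signal is each read count divided by the DESeq2 size factor of its library. The authors' columns of their baseline comparison (mean, log2 fold change, error, statistic, p-values) were not used. Whole reads were recovered for 100% of values (within 0.01), giving 20623769 to 71855101 reads per library. Low counts carry a large counting error. Replicates differed beyond sampling noise.

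Groups came from the labels. A limma 3.58.1 trend model (R 4.3.3) was fitted to log2(normalized count + 1) of 16 libraries in 6 groups for 20576 genes with a mean of at least 10, and was tested on simulated data. Fold changes on this scale understate those of low genes. The members and lists were chosen with earlier results of these data known. Also named were the other Serpina3 genes, up to 3 genes per list with the smallest p for MI against sham in PKM2fl/fl hearts, the 5 genes most correlated with Serpina3n and Serpina3m, and, after their values were seen, called genes of short lists. Alternatives were other scalings, a pseudocount of 0.1, no filter, only the compared groups, a replicate block, DESeq2 1.42.0 and edgeR 4.0.16 on recovered reads, and each library left out. RefSeq (GRCm38.p6) gave positions (7 of 7) and promoters (5 of 7), and the longest manually annotated GENCODE M39 transcript (GRCm39) gave lengths and loops, aligned with Biopython 1.88.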

Additional observations from a re-analysis of the deposited data

Results flagged for a closer look

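Serpina3g and Serpina3h were flagged among the members of the cluster only. For these genes every PKM2-/- heart lay below every PKM2fl/fl heart at baseline and above every one after MI. Of all genes, 17.2% lay below without overlap at baseline, and 10.7% lay above without overlap after MI. The share of all genes that changed sides in this way was not computed, so how unusual the pattern is remains unknown. For Serpina3g the difference between genotypes (log2) was -1.11 at baseline and 1.03 after MI, a change of 2.14. For Serpina3h it was -1.20 and 1.27, a change of 2.48. The change was not tested, since the genes were chosen as neighbours of one that differed by genotype. The baseline values rest on 2 to 29 reads per library and 2 hearts per genotype.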

How the results depend on the processing

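Each group holds 2 or 3 hearts, and the baseline values of Serpina3f, Serpina3g, Serpina3h and Serpina3i rest on 2 to 29 reads, so that small differences there were not detectable at this depth. The same limit holds for Serpina3c, with 7 to 28 reads per baseline library, and for Serpina3m, with 9 to 42. Total read scaling moved the median log2 difference of all genes to -0.59, -0.33 and 0.36 between genotypes at baseline, after sham surgery and after MI, and to -0.17 and 0.52 for MI against sham in PKM2fl/fl and PKM2-/- hearts, and with it 5494 genes were higher and 1512 lower after MI in PKM2-/- hearts (against 2974 and 2949). The causes were not tested.

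After sham surgery, the members with every PKM2-/- library above every PKM2fl/fl library numbered 1 under total read and TMM scaling (against 2) and 2 to 4 with a library left out, and those below 0 to 2 (against 0). In PKM2fl/fl hearts after MI, 1 member was lower by edgeR without a filter (against 0) and 0 to 1 with a library left out. For sham against baseline in PKM2fl/fl hearts the members called higher (against 1) numbered 3 with total read scaling, 0 with only the 2 groups, 4 by DESeq2, 0 by edgeR, 5 by edgeR without a filter and 0 to 5 with a library left out. Genes called higher there (against 33) numbered 94 with total read scaling, 1 with only the 2 groups, 226 by DESeq2, 20 by edgeR, 448 by edgeR without a filter and 7 to 195 with a library left out, and genes lower (against 2) 0, 0, 11, 2, 39 and 0 to 17, with 4 without a filter on low values and 1 with the replicate block. In PKM2-/- hearts, genes higher (against 423) numbered 276 with only the 2 groups, 276 by edgeR, 672 by edgeR without a filter and 194 to 471 with a library left out, genes lower (against 125) 32 with total read scaling, 267 by edgeR without a filter and 24 to 147 with a library left out, and members higher (against 4) 2 to 5.

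In the tested comparisons, values that changed sign were those of Serpina3c for MI in PKM2-/- hearts (0.28 with total read scaling, -0.54 to 0.049 with a library left out, the last without the second MI heart) and of Serpina3h for sham in PKM2fl/fl hearts (-0.032 with total read scaling, -0.0013 when scaled to reads outside rRNA-related and mitochondrial genes, -0.50 to 0.54 with a library left out, -0.50 without the second baseline heart and -0.39 without the first sham heart), none of them called. Between genotypes, Serpina3c changed sign at baseline (0.077, and -0.54 to 0.69 with a library left out) and after sham surgery (-0.026, and -0.60 to 0.29). Serpina3f did so at baseline (-0.018, and -0.54 to 0.50) and Serpina3g after sham surgery (0.10, and -0.30 to 0.34). Same-numbered hearts deviated together with r of -0.06 to 0.03 (PKM2fl/fl sham and MI) and -0.09 to 0.03 (PKM2-/- sham and MI). Between the MI groups of the 2 genotypes r was -0.06 to 0.13, and between PKM2fl/fl baseline and sham -0.20 to -0.02. With 2 or 3 hearts per group, these values cannot decide whether the replicate number pairs the hearts. With the number as a block, 5 and 6 members were higher after MI and 1 and 4 after sham surgery, as without it.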
